A study of Sus scrofa with 20 samples.

Results

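The change of the longissimus muscle tag population between 2 and 28 days post natum (dpn) was examined in Landrace (LR) and Lantang (LT) pigs. The comparison used the 4 of 20 libraries whose labels give 2 or 28 dpn, 2 libraries a side, with breed as the pairing block. LR is a lean, fast-growing breed and LT is a fatter, slower-growing Chinese breed. The 4 groups were LR at 2 dpn, LR at 28 dpn, LT at 2 dpn and LT at 28 dpn, all purebred and, by the study's methods, male. Equal amounts of RNA from 3 pigs were pooled into each library, so each breed and stage had 1 pool and the animals inside a pool cannot be told apart. The study's methods have the boars castrated at an age between these stages, so growth from 2 to 28 dpn and castration cannot be told apart either.

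The libraries were made by digital gene expression (DGE) tag profiling. The enzyme NlaIII cuts cDNA at CATG, and a tag of 21 bases, CATG and the next 17, is read from the site nearest the poly(A) tail. The number of copies of a tag is a count of transcripts that carry it, and levels are given as TPM, copies of a tag per 1000000 clean tags of the library. No reference transcripts were used here, so the tags are given by sequence and not by gene, and the muscle identity of the samples was not checked with marker genes.

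Around birth the number of fibers in pig muscle is nearly fixed, and later growth comes mainly from the enlargement of existing fibers. During the first weeks the fetal and neonatal forms of the contractile proteins are replaced by adult forms, and the fibers settle into slow and fast types. Transcripts of contractile proteins and of energy metabolism make up a large part of the mRNA of mature muscle, so a few transcripts can dominate a muscle library.

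The libraries held 3116426 (LR 2 dpn), 2908962 (LR 28 dpn), 4415414 (LT 2 dpn) and 5127896 (LT 28 dpn) clean tags. A count of 3, taken as the limit of detection, stood for 0.585 to 1.03 TPM. Intervals and this limit cover counting error only, since PCR copies are not independent molecules. The LR 2 dpn library stood apart in its rare tags, because 70.35% of its distinct tags had fewer than 5 copies, against 54.11 to 56.75% in the other 3 libraries.

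At 28 dpn fewer tags carried more of the library than at 2 dpn, in both breeds. In LR the 10 most abundant tags held 8.03% of clean tags at 2 dpn (95% Wilson interval 8.003 to 8.063%) and 16.01% at 28 dpn (15.97 to 16.05%). In LT the same share was 7.95% (7.93 to 7.98%) and 16.24% (16.21 to 16.27%). The shares of the 2 stages did not overlap, and the breeds were close at each age. In a bulk sample, fewer cells of a type and less RNA per cell cannot be told apart, and a larger share of some tags lowers the share of all others. The 100 most abundant tags held 23.95% and 25.36% of clean tags at 2 dpn in LR and LT, and 40.39% and 38.71% at 28 dpn. At 2 dpn 50% of the clean tags were carried by 1376 tags in LR and 936 tags in LT, and at 28 dpn by 245 and 281 tags.

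**Figure D1:**
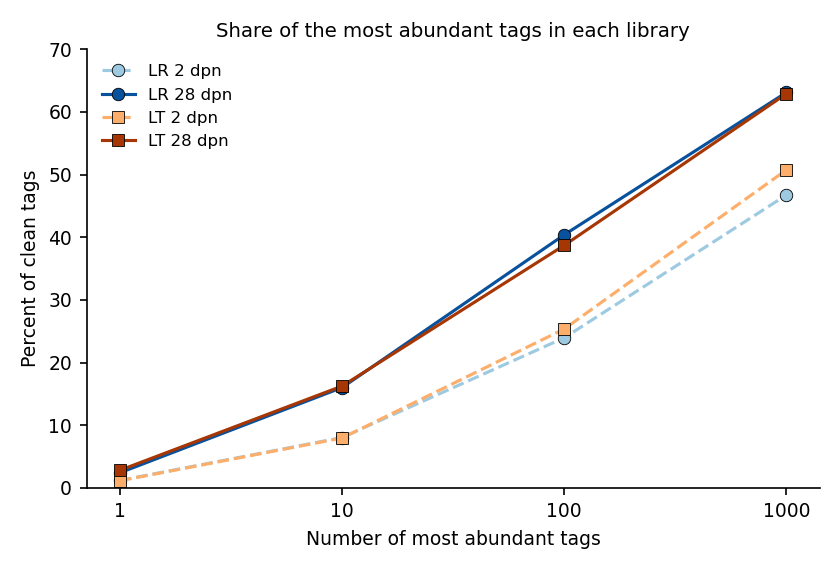
Percent of clean tags (linear axis) held by the 1, 10, 100 and 1000 most abundant tags in each of the 4 libraries; 1 point per library. Both 28 dpn libraries lie above both 2 dpn libraries at every size, with 62.91 and 63.11% against 46.74 and 50.75% for 1000 tags.

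The number of distinct tags was also lower at 28 dpn. In draws of 2900000 clean tags, LR gave 202904 distinct tags at 2 dpn and 99444 at 28 dpn, and LT gave 135412 and 118323. The size of the fall differed between the breeds, with ratios of 0.490 in LR and 0.874 in LT. Counting tags with at least 10 copies, which leaves out most rare tags of the LR 2 dpn library, the ratios were 0.748 and 0.886. With 2 libraries a side an exact permutation test cannot reach p below 0.05, so these values are given without a test.

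The composition moved by a like amount in each breed. Between 2 and 28 dpn, 38.73% of the clean tags in LR and 38.94% in LT would have to belong to other tags to turn one library into the other. This was below the shift from 91 days post coitus (dpc) to 2 dpn, which was 44.46% in LR and 43.81% in LT. The next shift, from 28 to 90 dpn, was 28.67% in LR and 43.47% in LT, so it was the smaller one in LR and the larger one in LT. The shift from 2 to 28 dpn was also slightly above the distance between the breeds at one age, 35.40% at 2 dpn and 33.38% at 28 dpn. No library has a repeat of its breed and age, so the distance between like pools is not known. The order of these shifts was not tested.

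Each tag was compared between the ages in 3 ways. edgeR's quasi-likelihood test with breed as a block treats the breeds as replicates. Its p-values set the change with age against the difference in that change between the breed pools. That spread is estimated in part from all tags together, and the spread between animals is not measured. Among 33312 tags past edgeR's low-count filter, 0 passed a Benjamini-Hochberg adjusted p of 0.05, which is 0.0% of those tested, and the smallest adjusted p was 0.131. At an unadjusted p below 0.05 edgeR had 5623 tags (16.9%). DESeq2 with the same design called 699 tags at an adjusted p below 0.05 (2.1%), 558 of them higher and 141 lower at 28 dpn.

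The other comparison was an exact binomial test of the 2 libraries of a breed, with p below 0.005, a false discovery rate below 0.01 and an absolute log2 ratio above 0.5. It compares 2 libraries and covers counting error only, not the spread between animals. In LR, 2427 of 233414 tags were higher at 28 dpn (1.04%) and 5087 were lower (2.18%). In LT, 5097 of 188971 were higher (2.7%) and 11088 were lower (5.87%).

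A tag called in the same direction in both breeds was taken as the shared change, since the LR and LT comparisons have no library in common. Of 106734 tags tested in both breeds, 1093 were higher at 28 dpn in both (1.02%) and 2034 were lower in both (1.91%). Calls in opposite directions numbered 166 for higher in LR and lower in LT (0.156%) and 232 for lower in LR and higher in LT (0.217%). The 1093 rising tags were 45.0% of the tags that rose in LR and 21.4% of those that rose in LT. The 2034 falling tags were 40% of those that fell in LR and 18.3% of those in LT. Among filtered tags called higher in LR, 52.4% were also called higher in LT, where 12.1% of all filtered tags were called so. Among those called lower in LR, 55.3% were also called lower in LT, against 26.2% of all filtered tags.

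The balance of rising and falling tags depended on the scaling. The calls above scale each library to its total, and the median log2 fold of all filtered tags from 2 to 28 dpn was then -0.44, against -0.05 with TMM factors. With TMM scaling 1823 tags rose and 983 fell in both breeds, so rising tags were 65.0% of the shared calls in place of 35.0%. All 1093 rising tags were still called with TMM scaling, while 983 of the 2034 falling tags (48.3%) were. The TMM factors at 2 and 28 dpn were 1.095 and 0.8884 in LR and 1.2 and 0.8564 in LT. They raise every ratio of 28 over 2 dpn, so a rising tag could hardly lose its call. This scaling is thus a check on the falling tags only. Under edgeR's exact test with a coefficient of variation of 0.4 between libraries assumed, 3 tags rose and 5 fell in both breeds.

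**Figure D2:**
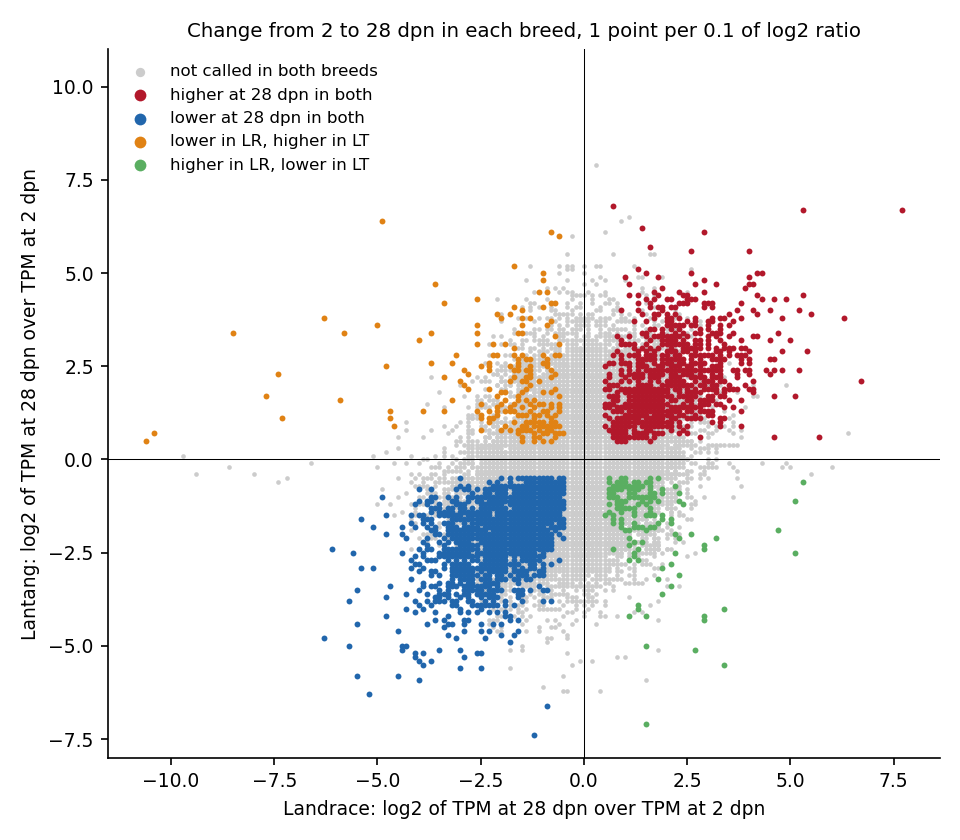
Log2 ratio of TPM at 28 dpn over TPM at 2 dpn in LR (x axis) and LT (y axis) for 33312 tags past the low-count filter, with counts below 3 set to 3 and positions rounded to 0.1. The 4 colors mark tags called in both breeds; red and blue tags moved the same way, and orange and green tags moved in opposite ways.

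Across the 33312 filtered tags the log2 ratios of the breeds had Pearson's r = 0.449, and 67.2% had the same sign. The tags share the library totals, so this is a description across tags and not a test. The 2 libraries of 28 dpn both lay above the 2 of 2 dpn in 4599 tags (13.8%) and both below in 11422 tags (34.3%).

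The shared rising tags had a median log2 ratio of 1.95 in LR and 2.04 in LT, where the medians of all filtered tags were -0.33 and -0.58. The shared falling tags had medians of -1.80 and -1.84. A change of at least 4-fold in both breeds was seen in 371 rising and 550 falling tags, with 0.01 TPM in place of 0 as in these medians. Of the rising tags past the filter, 1050 of 1086 had an unadjusted edgeR p below 0.05 and DESeq2 called 540. Of the falling tags, 1132 of 2027 had such a p and DESeq2 called 140. Of all filtered tags 16.9% had such a p and DESeq2 called 2.1%. The shared tags were chosen by calls on the same libraries, so these counts are not independent of that choice. Groups did not overlap in 1017 rising (93.0%) and 1880 falling tags (92.4%), against 13.8 and 34.3% of all filtered tags, but these shares follow in part from the calls themselves.

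With scaling to library totals the rising tags were fewer than the falling tags. They held less of the libraries at 2 dpn and more at 28 dpn. The 1093 rising tags held 10.60% of clean tags in LR and 8.23% in LT at 2 dpn, and 33.49% and 26.49% at 28 dpn. The 2034 falling tags went from 15.15% to 5.45% in LR and from 19.68% to 6.80% in LT. The gain of the rising tags was thus larger than the loss of the falling tags in either breed.

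The 10 rising tags with the largest change in TPM in both breeds are shown because they made the largest gains of single tags. R1 to R10 are ranked by the smaller change of the breeds, and the capitals mark the NlaIII site.
R1: CATGtaccatcaataaagtac
R2: CATGaagatcaagatcatcgc
R3: CATGcttttctccactcaaag
R4: CATGcagaaggagatcaccgc
R5: CATGagcaaaaattcactttg
R6: CATGcctactaagcggggagg
R7: CATGaggattgaggaggctct
R8: CATGatccccgcccagaagta
R9: CATGtggaacgagcacctggg
R10: CATGtgaagctggcacacctg

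Together these 10 tags rose from 5.17% (95% Wilson interval 5.14 to 5.19%) to 15.03% (14.99 to 15.07%) of clean tags in LR. In LT they rose from 4.28% (4.27 to 4.30%) to 12.82% (12.79 to 12.85%). All 10 had both 28 dpn libraries above both 2 dpn libraries, against 13.8% of all filtered tags, and were called in both breeds with TMM scaling too. Both follow in large part from the choice of tags that rose in both breeds, since TMM scaling raises every ratio of 28 over 2 dpn. The adjusted p of edgeR ran from 0.131 to 0.293, and DESeq2 called 9 of the 10, against 2.1% of all filtered tags.

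R1 had 8696 TPM at 2 dpn and 20945 at 28 dpn in LR, and 7709 and 28048 in LT. This is 2.41-fold in LR and 3.64-fold in LT, and at 28 dpn R1 was the most abundant tag of the LT library. R2 had 9219 and 19792 TPM in LR and 11330 and 25310 in LT, a like fold of 2.15 and 2.23. R5 started highest in LR, at 11817 TPM, and had 18003 at 28 dpn, with 9714 and 24807 in LT. Its 1.52-fold change in LR was the smallest of the 10, and it was the tag that DESeq2 did not call (adjusted p = 0.0971).

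R6 had the largest fold in LR, with 1806 TPM at 2 dpn and 24095 at 28 dpn (13.3-fold), where it was the most abundant tag. In LT it had 1525 and 7421 TPM (4.87-fold). The breeds were thus close at 2 dpn and apart at 28 dpn for this tag. R10 had 693 and 7690 TPM in LR (11.1-fold) and 427 and 3406 in LT (7.98-fold), the largest fold of the 10 in LT. R7 had 817 and 6159 TPM in LR, and 1298 and 4838 in LT.

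R3 had 4133 and 14039 TPM in LR and 2110 and 11888 in LT, and R4 had 7920 and 15915 in LR and 4278 and 11898 in LT. Both were lower in LT than in LR at each age. R8 had 3423 and 10669 TPM in LR and 3129 and 6218 in LT. R9 had 3140 and 13006 TPM in LR and 1325 and 4332 in LT. At 28 dpn R1, R2 and R5 were higher in LT, and the other tags of the list were higher in LR.

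**Figure D3:**
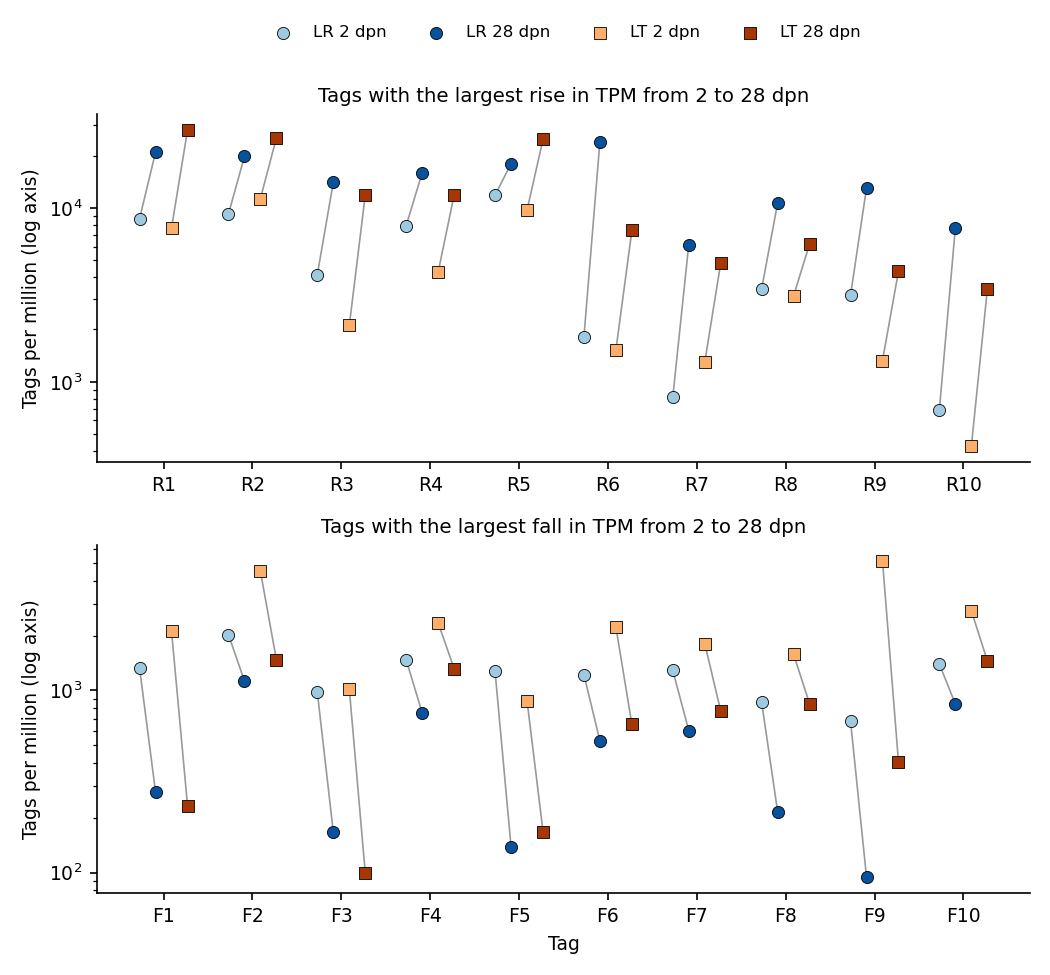
TPM (log axis) of R1 to R10 and of F1 to F10 in each library; circles are LR, squares are LT, pale symbols are 2 dpn, dark symbols are 28 dpn and lines join the libraries of a breed. The stages do not overlap for any of the 10 rising tags, and overlap for F10 among the falling tags.

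The 10 falling tags with the largest change in TPM are shown by the same ranking.
F1: CATGtcatgcggctcagctgg
F2: CATGttgaacatctccccctt
F3: CATGaagctttgagtgaagcc
F4: CATGggcggtgcttttgtatt
F5: CATGaaatgtgacattgatat
F6: CATGtggtgttgaggaaagca
F7: CATGactccttggaattgatt
F8: CATGtgtgatcagactggtat
F9: CATGgtttcatctcccgggag
F10: CATGatgagtgtaaagaaaat

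These 10 tags held far less of the libraries than the rising tags. Their sum went from 1.25% (95% Wilson interval 1.24 to 1.27%) to 0.474% (0.467 to 0.482%) in LR and from 2.43% (2.42 to 2.45%) to 0.741% (0.733 to 0.748%) in LT. The stages did not overlap in 9 of the 10, against 34.3% of all filtered tags in this direction, which follows in part from their choice. With TMM scaling F4, F8 and F10 were no longer called in both breeds. DESeq2 called 4 of the 10, against 2.1% of all filtered tags. The adjusted p of edgeR ran from 0.138 to 0.735.

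F1 had 1325 TPM at 2 dpn and 276 at 28 dpn in LR, and 2107 and 232 in LT, which is 4.81-fold and 9.07-fold lower. F3 had 978 and 167 TPM in LR and 1020 and 98.9 in LT (5.87-fold and 10.3-fold lower). F5 had 1274 and 139 TPM in LR and 878 and 168 in LT (9.15-fold and 5.23-fold lower). The stages did not overlap for any of the 3 tags.

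F9 differed between the breeds at 2 dpn, with 681 TPM in LR and 5134 in LT. At 28 dpn it had 94.5 TPM in LR and 404 in LT, so that it fell 7.2-fold and 12.7-fold. F1, F3, F5 and F9 were the 4 tags called by DESeq2. F2, F4, F6, F7, F8 and F10 fell 1.66-fold to 4-fold in LR and 1.79-fold to 3.42-fold in LT.

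F1 holds a further CATG inside its sequence, and 2 tags of the libraries start with the bases from there to its end. The more abundant one is shown with F1, joined by the shared bases, because the letters allow a common origin. Without a transcript sequence this was not tested.
F1: CATGtcatgcggctcagctgg
joined stretch: catgtcatgcggctcagctgggagcc
The tag that completes the stretch had 516 TPM at 2 dpn and 89.7 at 28 dpn in LR, and 1271 and 118 in LT, a fall in both breeds like that of F1. A rarer tag runs into F10 in the same way, F10 being the most abundant of its 5 candidate partners. It had 11.9 and 10.7 TPM in LR and 16.8 and 27.3 in LT and did not follow the fall of F10. Among 254 pairs of filtered tags that overlap by at least 12 bases with 1 candidate partner, both tags were called in 29 pairs in LR and in 57 in LT. The direction was the same in 28 of the 29 and in 52 of the 57. Of all called tags only 32.3% in LR and 31.5% in LT were higher at 28 dpn, so called tags often share a direction without any link.

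The tags with the largest folds were less abundant. Among shared tags with at least 50 TPM in both breeds at the higher stage, 328 rose and 557 fell, leaving out tags 1 base from a tag at least 10 times as abundant. The 5 rising and 5 falling tags with the largest smaller fold of the breeds are shown because their groups are furthest apart.
BR1: CATGacccgagagacagccga
BR2: CATGtgatgtcaaggaaataa
BR3: CATGgatgtggcggcatctga
BR4: CATGgatgtggcggcctctga
BR5: CATGgagcacatccgtgtggg
BF1: CATGagctggaagaggccgag
BF2: CATGagagaagagtaaaggaa
BF3: CATGgagatcctggagaagct
BF4: CATGgaaggcctgcagtgaca
BF5: CATGacatgtgcaaaagtccc

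BR1 was nearly absent at 2 dpn, with 4 counts in LR and 0 counts in LT, and had 260 TPM in LR and 71.6 in LT at 28 dpn. It was 202-fold higher at 28 dpn in LR and at least 105-fold higher in LT, taking the limit of 3 counts in that library. BR2 had 138 and 5471 TPM in LR (39.6-fold) and 18.1 and 1881 in LT (104-fold). BR2 was the tag with the smallest DESeq2 adjusted p of those named (1.67e-21), and its edgeR adjusted p was 0.131. BR5 had 45.9 and 858 TPM in LR and 8.83 and 184 in LT.

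BR3 and BR4 differ by 1 base, A16C counted from the first base of the tag, and rose together. BR3 had 17.3 and 534 TPM in LR and 22.9 and 451 in LT, and BR4 had 4.49 and 85.9 in LR and 2.49 and 81.1 in LT. BR3 made up 79.4 to 90.2% of the sum of the pair in the 4 libraries. Over BR1 to BR10 the folds ran from 8.60 to 202 in LR and from 10.1 to 105 in LT.

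BF1 had 216 TPM at 2 dpn and 4.13 at 28 dpn in LR, and 483 and 14.8 in LT, which is 52.4-fold and 32.6-fold lower. BF2 had 95.0 and 2.06 TPM in LR and 95.3 and 4.49 in LT, the same level in the breeds at 2 dpn. BF3 had 233 and 8.59 TPM in LR and 700 and 38.4 in LT. BF4 had 97.9 and 5.84 TPM in LR and 670 and 17.9 in LT. BF1, BF3 and BF4 thus started at a higher level in LT and fell in both breeds. Over BF1 to BF10 the folds ran from 13.2 to 52.4 in LR and from 13.7 to 58.1 in LT. All 20 tags BR1 to BR10 and BF1 to BF10 had stages that did not overlap and were called by DESeq2. Tags chosen for a large fold in both breeds could hardly do otherwise. Of all filtered tags 13.8% were above and 34.3% below at 28 dpn without overlap, and DESeq2 called 2.1%.

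Ranking the shared tags by the p of edgeR instead gave BR1 to BR4 and 1 further rising tag, DR5, and BF1 with 4 further falling tags, among them DF1, DF2 and DF5. All 10 had an edgeR adjusted p of 0.131.
DR5: CATGgtgaagatcgtgaccgt
DF1: CATGctctggtaacacgcaga
DF2: CATGaagagggaaagatcctg
DF5: CATGaggaatatcggtagctt
DR5 had 0.642 and 39.5 TPM in LR and 0 and 5.07 in LT. DF1 had 46.2 and 1.03 TPM in LR and 63.9 and 1.17 in LT, and DF2 had 65.1 and 1.72 in LR and 46.7 and 0.585 in LT. DF5 had 8.02 TPM in LR and 29.0 in LT at 2 dpn and 0 counts in both breeds at 28 dpn, at least 7.78-fold and 49.6-fold lower. These tags were near or under the limit of 3 counts at one of the stages.

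BF5 shares 16 bases with the start of a more abundant tag, its only candidate, and the joined letters are shown with it.
BF5: CATGacatgtgcaaaagtccc
joined stretch: catgacatgtgcaaaagtccccccag
BF5 had 60.6 and 3.44 TPM in LR and 189 and 11.3 in LT. Its neighbor had 379 and 83.5 TPM in LR and 1105 and 192 in LT, so both tags fell in both breeds, BF5 by the larger fold.

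The other stages, whose libraries the calls did not use, place these changes in development. The 1093 rising tags held 2.13 to 7.62% of clean tags in LR and 2.25 to 6.95% in LT over the 5 prenatal stages, and 27.21 to 34.45% over 90, 120 and 180 dpn in both breeds. This is the summed share, to which a few abundant tags contribute most. The median level of the 1093 tags was 10.3 TPM at 2 dpn and 37.8 at 28 dpn in LR, and then 25.0, 6.996 and 14.9 at 90, 120 and 180 dpn. In LT it was 7.70 and 30.2 TPM, and then 29.9, 24.4 and 19.4. In LR at 120 dpn the median was thus below that of 2 dpn, and R4, R8 and R9 had 145, 171 and 8.75 TPM there. The 2034 falling tags held 14.78 to 18.47% of clean tags before birth and 4.47 to 8.51% from 90 dpn on. Their summed share at 2 dpn was near the prenatal one and that at 28 dpn near the later one.

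**Figure D4:**
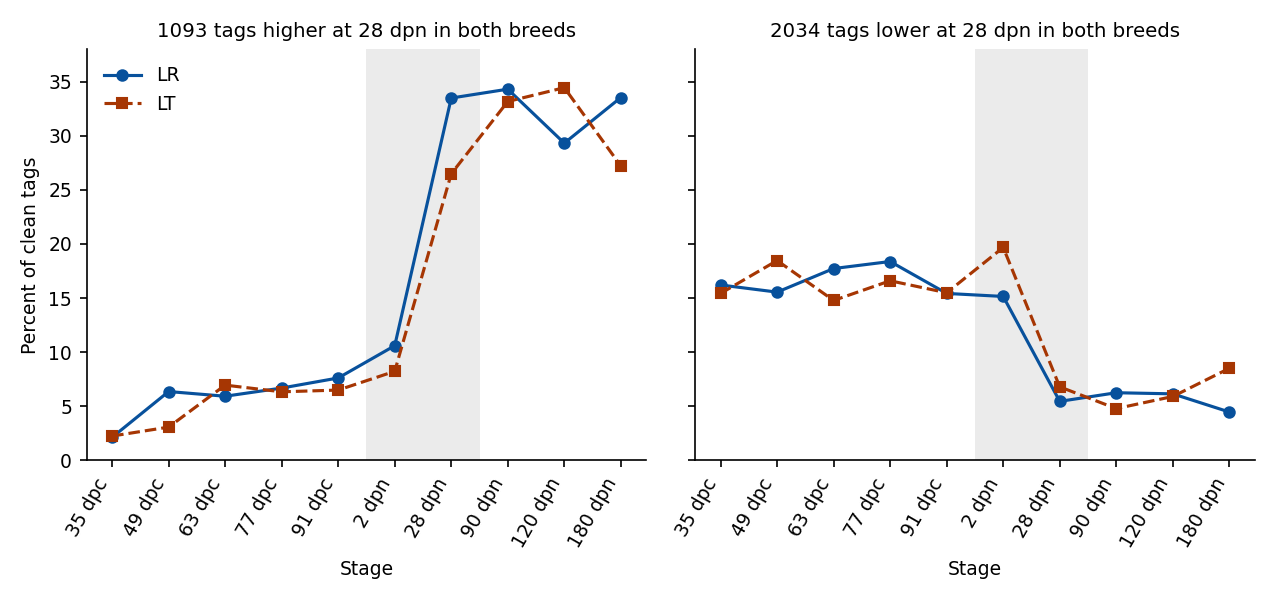
Percent of clean tags held by the 1093 tags that rose (left) and the 2034 tags that fell (right) between 2 and 28 dpn in both breeds, at all 10 stages; circles are LR and squares are LT, 1 library each. Grey marks the 2 stages used to choose the tags; outside it the rising tags stay at 7.62% or less before birth and at 27.21% or more from 90 dpn.

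Per tag the picture was less uniform. From 91 dpc to 90 dpn, 690 of the rising tags (63.1%) were higher in both breeds, against 18.7% of all filtered tags. Of the falling tags 1251 (61.5%) were lower in both breeds, against 48.9% of all filtered tags. The median log2 ratio of 90 dpn over 91 dpc was 1.27 in LR and 1.76 in LT for the rising tags, and -0.59 and -1.41 for the falling tags, where all filtered tags had -0.59 and -0.72. In LR the falling tags thus had the median of all tags in this second comparison.

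Single tags showed different courses. R1 was higher still after 28 dpn in LR, with 37990 TPM at 90 dpn and 67391 at 120 dpn, while in LT it had 13546 and 45238. R10 had 3606 TPM in LR at 90 dpn and 30.3 at 120 dpn, against 12708 and 4676 in LT. Its 28 dpn level was the highest of the 10 stages in LR and was not in LT. R5 had 2600 TPM in LR and 5398 in LT at 90 dpn, below its level at 2 dpn.

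The falling tags fell from different starts. F1 and F9 were low before birth, with 180 and 153 TPM in LR and 175 and 138 in LT at 91 dpc, and were highest at 2 dpn in both breeds. Their fall was not lasting throughout. At 90, 120 and 180 dpn F1 had 675, 23.9 and 31.0 TPM in LR and 237, 384 and 733 in LT. At these stages F9 had 306, 417 and 606 TPM in LR and 70.1, 150 and 450 in LT. F3 and F5 were high before birth, with 771 and 9935 TPM in LR and 2218 and 3889 in LT at 91 dpc. The highest of the 10 stages was 2 dpn for 5 of the 10 falling tags in LR and for 7 in LT. It was 28 dpn for 4 of the 10 rising tags in LR and for 2 in LT, and a later stage for the rest.

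BF1 and BF2 were higher at 91 dpc than at 2 dpn and lower again at 28 dpn. At 91 dpc BF1 had 2746 TPM in LR and 2859 in LT, and BF2 had 1084 and 1110. At 90 dpn they had 20.4 and 3.71 TPM in LR, and 4.55 and 2.28 in LT. BF3 and BF4 had at most 23.7 TPM at 91 dpc in either breed, so their 2 dpn levels were above both 91 dpc and 28 dpn. At 90 dpn they had 22.3 and 82.5 TPM in LR, and 1.77 and 7.59 in LT. In LR BF4 was thus back near its 2 dpn level of 97.9 TPM. BR2 had 34.7 TPM in LR and 4.89 in LT at 91 dpc, and 6155 and 13629 at 90 dpn.

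The breeds were called in opposite directions in 398 tags. The 5 tags with the largest change that fell in LR and rose in LT, X1 to X5, and the 5 that rose in LR and fell in LT, Y1 to Y5, are shown for this difference.
X1: CATGagctgtcccatccctcg
X2: CATGtatgatgactaatcatt
X3: CATGgaatctaaccacgacca
X4: CATGtggaatgtttgtcataa
X5: CATGaggacagcaacggctgc
Y1: CATGtatgatgactaatcagt
Y2: CATGagcgaggcgggcgaggc
Y3: CATGaacacttgatgccgttt
Y4: CATGcgaagtcactgtacctg
Y5: CATGgaatattttcaacccat

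X1 had 1625 TPM at 2 dpn and 3 counts (1.03 TPM) at 28 dpn in LR, and 4813 and 6981 TPM in LT. X2 had 1424 TPM and 0 counts in LR, at least 1381-fold lower at the limit of 3 counts, and 1001 and 1646 TPM in LT. X3 had 513 and 1.38 TPM in LR and 413 and 4366 in LT. The LR 28 dpn library was the low one for all 3 tags. At 90 dpn the LR library again had 1070 TPM of X1, 1046 of X2 and 80.7 of X3. X4 had 559 and 208 TPM in LR and 205 and 943 in LT, and X5 had 514 and 238 in LR and 226 and 501 in LT.

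Y1 had 554 and 1165 TPM in LR and 1065 and 59.7 in LT. Y2 had 409 and 1560 TPM in LR and 1140 and 622 in LT. Y3 had 110 and 352 TPM in LR and 1947 and 557 in LT. Y4 had 430 and 669 TPM in LR and 940 and 468 in LT, and Y5 had 155 and 293 in LR and 1099 and 422 in LT. In Y3, Y4 and Y5 the 2 dpn libraries differed more between the breeds than the 28 dpn libraries did.

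**Figure D5:**
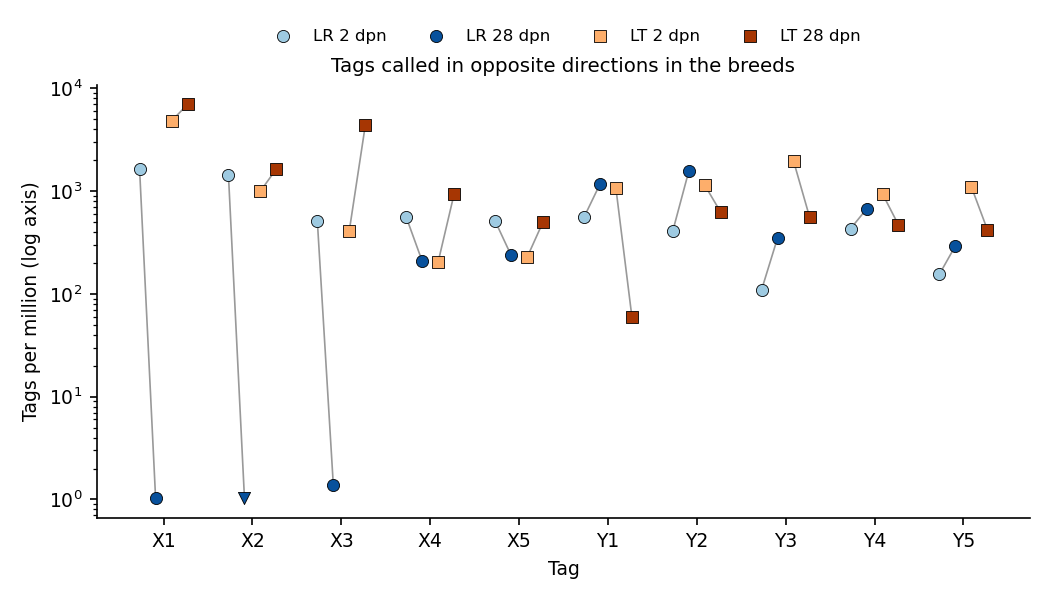
TPM (log axis) of X1 to X5 and Y1 to Y5 in each library; circles are LR, squares are LT, pale is 2 dpn and dark is 28 dpn, and the triangle is 0 counts, drawn at the level of 3 counts. X1, X2 and X3 are at or under 1.38 TPM in LR at 28 dpn.

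X2 and Y1 are the same sequence but for 1 base, T20G. They are shown side by side, with that base in capitals, because their opposite changes lie at one site.
X2: catgtatgatgactaatcaTt
Y1: catgtatgatgactaatcaGt
X2 made up 72.0% of the pair at 2 dpn and 0% at 28 dpn in LR, and 48.5% and 96.5% in LT. The sum of the pair was 1978 and 1165 TPM in LR and 2065 and 1706 in LT, log2 ratios of -0.76 and -0.28. The sum thus went the same way in both breeds, while the share of each form did not.

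X3 also had a neighbor 1 base away, C9T, that changed in the other direction in LR.
X3: catggaatCtaaccacgacca
X3 neighbor: catggaatTtaaccacgacca
The neighbor had 1248 and 2684 TPM in LR and 0.679 and 1.76 in LT. X3 was 29.1% of the pair at 2 dpn and 0.0512% at 28 dpn in LR, and at least 99.8% in LT at both ages. The sum of the pair was 1761 and 2685 TPM in LR and 414 and 4368 in LT, so it rose in both breeds, with log2 ratios of 0.61 and 3.40.

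A 1-base neighbor called in the other direction in at least 1 breed was found for 38 of the 398 opposite tags (9.55%) and for 67 of the 3127 tags that moved the same way (2.14%). These shares are not like for like. A neighbor that moved the same way in both breeds always opposes an opposite tag in 1 breed. A neighbor called the other way in both breeds was found for 4 opposite tags (1.01%) and for 16 of the others (0.512%). Each pool held RNA of 3 pigs, and other pigs were used at each age. The part of allele differences between the pools in these results was not tested.

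Base composition differed between the groups of tags. The 231 filtered tags that fell in LR and rose in LT had a mean of 33.5% G and C in their 17 bases, against 43.6% over all filtered tags. Of these tags 37 (16%) ended in AAAAA, against 1.29% of all filtered tags. A tag that ends in A bases can lie at the start of a poly(A) tail or in an A-rich stretch. The 166 tags that rose in LR and fell in LT had a mean of 48.6% G and C, and 0 of them ended in AAAAA. The low G and C content was shared by the 2721 filtered tags that rose in LT and were not called in LR, with a mean of 38.4% and 9.37% ending in AAAAA. The shared rising tags had a mean of 46.6% and the shared falling tags of 44.8%.

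Tags ending in AAAAA behaved differently in the breeds. Among 430 such filtered tags LT had 303 higher (70.5%) and 23 lower (5.35%) at 28 dpn, with a median log2 ratio of 3.67. Of all filtered tags LT had 12.1% higher and 26.2% lower. LR had 11 higher (2.56%) and 54 lower (12.6%), with a median of -0.55, and of all filtered tags LR had 6.23% higher and 11% lower. The share of lower tags in LR was thus near that of all tags. The 3 with the largest change in LT are shown, chosen after their values were seen, with the end in capitals.
A1: catgtaatgtaagaagAAAAA
A2: catggtcactcttaaaAAAAA
A3: catgtaaataacaaaaAAAAA
A1 had 165 and 231 TPM in LR and 127 and 1623 in LT. A2 had 169 and 84.2 TPM in LR and 17.4 and 498 in LT. A3 had 78.6 and 52.3 TPM in LR and 6.11 and 403 in LT. The LT 28 dpn library was the high one for all 3 tags.

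As a whole, tags ending in AAAAA made up 0.880% of clean tags in LR at 2 dpn, 0.604% in LR at 28 dpn, 0.298% in LT at 2 dpn and 1.33% in LT at 28 dpn. Over the 20 libraries the share ran from 0.265 to 2.40%, with a median of 0.530%. From the highest share down, the LT 28 dpn library was in place 5 and the LT 2 dpn library in place 18. The part of this library difference in the LT changes was not tested. Without tags ending in AAAAA, 195 of the 232 tags that fell in LR and rose in LT were left, as were 1081 of the 1093 shared rising and 2032 of the 2034 shared falling tags.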

How the data were processed

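The authors counted tags after dropping adaptor reads, empty reads, poor reads and tags with a single copy, and the smallest deposited count was 2. Each deposited file lists distinct clean tags with their raw count and with TPM, copies per 1000000 clean tags. The submitters' processing notes name Bowtie 0.12.3 and the build NCBI36. Their mapping to genes was not used here. TPM was recomputed from the counts, and a tag not listed in a library was set to 0.

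Samples were grouped by the developmental stage in their labels, with breed as the replicate number. The breeds pair by design, since each gives 1 pool per stage. edgeR 4.0.16 used filterByExpr, TMM, breed as block and Benjamini-Hochberg adjustment, leaving 1 residual degree of freedom. DESeq2 1.42.0 was an alternative. Exact 2-sided binomial tests used library totals and 0.01 TPM in place of 0. Folds used at least 3 counts per library.

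The comparison and the rules for named tags were chosen with earlier results of these data known. Named tags excluded those 1 base from a tag 10 times as abundant. They were the 10 in each direction with the largest smaller change in TPM of the breeds (R, F), the 10 with the largest smaller fold at 50 TPM or more (BR, BF), the 5 per opposite pattern (X, Y), and the 5 per direction with the smallest edgeR p. Planned tests on genes, marker genes and gene lists were not run without reference transcripts.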

Additional observations from a re-analysis of the deposited data

Results flagged for a closer look

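The 10 tags named for it changed in opposite directions in the breeds between 2 and 28 dpn, by the direction of the single library pair of each breed. With 1 library per breed and stage the difference between the breeds was not tested for any of them. The values are the log2 ratio of 28 over 2 dpn in LT minus that in LR, with counts below 3 set to 3. For tags lower in LR and higher in LT the difference was 11.16 for X1, 11.15 for X2, 11.95 for X3, 3.63 for X4 and 2.26 for X5. For tags higher in LR and lower in LT it was -5.23 for Y1, -2.80 for Y2, -3.48 for Y3, -1.64 for Y4 and -2.30 for Y5. Y4 has a neighbor 1 base away (A17C) that changed in the other direction, and the sum of that pair had log2 ratios of -0.06 in LR and -1.01 in LT. X1, X4 and X5 had no 1-base neighbor called in the other direction.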

How the results depend on the processing

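The edgeR count of 0 tags was the same with total scaling, at least 10 counts in 2 libraries, no replicate block (breed left out, 0 tags), 1-base neighbors merged, and 6, 16 or 20 libraries in the fit. DESeq2 called 699 tags and edgeR with no filter on low counts 1070. Leaving out each library in turn gave 0 to 29 tags, the 29 (2 higher, 27 lower at 28 dpn) without the LR 2 dpn library; the lone library of a stage is then assumed to vary like the others, and breed is dropped. With an assumed coefficient of variation of 0.4 the binomial calls were 97 in LR, 231 in LT, 8 in the same direction and 1 in opposite directions; no other alternative moved these counts by over 1.5 times, but TMM scaling changed the share of rising calls from 32.3 to 49.9% in LR and from 31.5 to 58.4% in LT. The ratio of distinct tags in LR was 0.489 in full libraries, 0.492 with neighbors merged and 0.748 at 10 counts or more, and in LT 0.905, 0.836 and 0.886. The rise of the top 100 tags' share, 16.4 points in LR and 13.4 in LT, was 16.8 and 13.9 with neighbors merged and 15.6 and 13.7 at 10 counts or more. The folds were followed for 50 list entries: the R, F, BR and BF tags and those with the smallest edgeR p. Some tags of the last group are also BR or BF tags and were counted again. The X and Y tags, called in opposite directions in the breeds, were not in this count. Of 650 log2 folds, 571 kept direction and missed the threshold, 77 passed it and 2 turned. Both turns were for F10 (0.02 without the LR 28 dpn and 0.14 without the LT 2 dpn library). Its range was -0.87 to 0.14 over libraries left out. Later stages could not be described for tags called by edgeR, as there were none. Depth limits any tag under about 1 TPM, and 1 pool per breed and stage limits every comparison.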
